A study of Mus musculus with 9 samples.

Results

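Rab GTPases are small switches on the membranes of cells, and the genes described here encode the Rab family as measured by RNA sequencing in myeloid cells of the mouse peritoneal cavity. Members were taken by name, as every gene symbol made of Rab, digits and at most 1 further letter, with Rab7b left out. The deposited data list 24532 genes, of which 58 matched, and 42 of these reached 1 FPKM (fragments counted per length of transcript and per size of library) in at least 2 of 9 libraries. The rule used names and a minimum level and no comparison between groups, although it was chosen with earlier results of these data known.

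All libraries came from C57BL/6 mice at 8 weeks of age, with no treatment or genetic change named, and all cells were MHCII+ and harvested by washing the peritoneal cavity. P-IV.I is labelled as peritoneal dendritic cells sorted CD11c+ CD115+. PcDC1 and PcDC2 are the type 1 and type 2 peritoneal dendritic cells, both sorted CD11c+ CD115-. P-IV.II comes from the same CD11c+ CD115+ sort as P-IV.I but is labelled as small peritoneal macrophages, and SPM are small peritoneal macrophages sorted CD11c- CD115+. PcDC1 has 1 library and each of the other groups has 2. The labels do not say which markers parted P-IV.I from P-IV.II or PcDC1 from PcDC2, nor whether the libraries of a group came from separate animals.

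A Rab protein cycles between a GTP-bound form that sits on a membrane and recruits effectors, and a GDP-bound form that a dissociation inhibitor (GDI) extracts into the cytosol. Exchange factors (GEFs) load GTP and GTPase-activating proteins (GAPs) end the active state. Each Rab marks a step of traffic, such as the early endosome, the recycling endosome, the lysosome, the Golgi or the secretory vesicle. In macrophages and dendritic cells these steps carry phagosomes towards degradation and bring antigen together with MHC molecules.

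Markers parted the groups in most but not all cases. Flt3, the receptor of a dendritic cell growth factor, lay between 102 and 173 FPKM in the P-IV.I, PcDC1 and PcDC2 libraries and at 3.01 or below in the P-IV.II and SPM libraries. Mertk, a macrophage receptor for dying cells, was at 0.448 FPKM or below in the dendritic libraries and between 5.23 and 16.0 in the macrophage libraries. Xcr1, a chemokine receptor of type 1 dendritic cells, was at 131 FPKM in PcDC1 and at 9.32 or below in the other 8 libraries. The 5 macrophage markers, nearly all Lyz2, summed to 4597 to 5306 FPKM in P-IV.I, 2710 in PcDC1, 380 to 590 in PcDC2, 39234 to 42829 in P-IV.II and 26533 to 40081 in SPM. Fcgr1, a macrophage receptor for antibodies, overlapped between P-IV.I (0.556 and 0.829 FPKM) and P-IV.II (0.576 and 0.165), as did Adgre1 between P-IV.I (40.7 and 57.9) and P-IV.II (56.0 and 69.7). Timd4, a large peritoneal macrophage marker, was highest in PcDC1 at 69.4 FPKM, with Gata6, the factor that defines those cells, at 0.228 or below in every library. Summed FPKM of 5 B cell markers was 27.1 to 27.5 in P-IV.I, 27.7 in PcDC1, 13.2 to 29.8 in PcDC2, 22.6 to 37.8 in P-IV.II and 41.0 to 45.2 in SPM. For 3 T and NK cell markers the sum was 2.87 to 4.73 in P-IV.I, 4.90 in PcDC1, 9.64 to 11.1 in PcDC2, 2.63 to 2.95 in P-IV.II and 2.11 to 4.72 in SPM. The 4 mast cell markers summed to 1.27 to 3.20 FPKM in P-IV.I and 3.47 in PcDC1. Their sum was 0 to 0.0077 in PcDC2, 0 to 0.319 in P-IV.II and 0 to 1.13 in SPM. The 4 neutrophil markers summed to 0.639 or less and the 3 mesothelial markers to 0.136 or less in every library. The part of these transcripts in the results below was not tested. Read depth is unknown, FPKM totals ranged from 439597 to 647385 with PcDC1 the highest, and Pearson's r between libraries of a group, across genes, was 0.950 to 0.973.

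The kept Rab genes together took between 0.364% and 0.550% of the FPKM total of a library, and PcDC1, whose total is the highest, had the lowest share. Their summed level averaged 1967 ± 142 FPKM over the 4 dendritic libraries of P-IV.I and PcDC2 and 2201 ± 246 over the 4 macrophage libraries of P-IV.II and SPM (SD), a difference of -10.6% with no test. It was -22.8% after median-ratio rescaling and -13.9% to -6.66% when a library was left out. The most abundant members were Rab1b, Rab7, Rab8a, Rab32, Rab10 and Rab8b, each with a mean above 100 FPKM over the 9 libraries. For Rab32 this rests on PcDC1, since its mean without that library was 94.5 FPKM. The filter separated low members by small steps. Rab23 passed narrowly, with 1.44 FPKM in PcDC1 and 1.39 in PcDC2 replicate 2 as its 2 libraries above 1. Just outside stood Rab39b with a highest value of 0.618 FPKM and Rab37 with 0.600. The other members that were not kept were Rab36, Rab34, Rab42, Rab26, Rab3b, Rab44, Rab40b and Rab17, with traces, and Rab33a, Rab9b, Rab25, Rab15, Rab3c and Rab27b, each listed at 0 in every library. In bulk RNA of this kind, fewer cells of a type and less RNA per cell cannot be told apart.

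**Figure D1:**
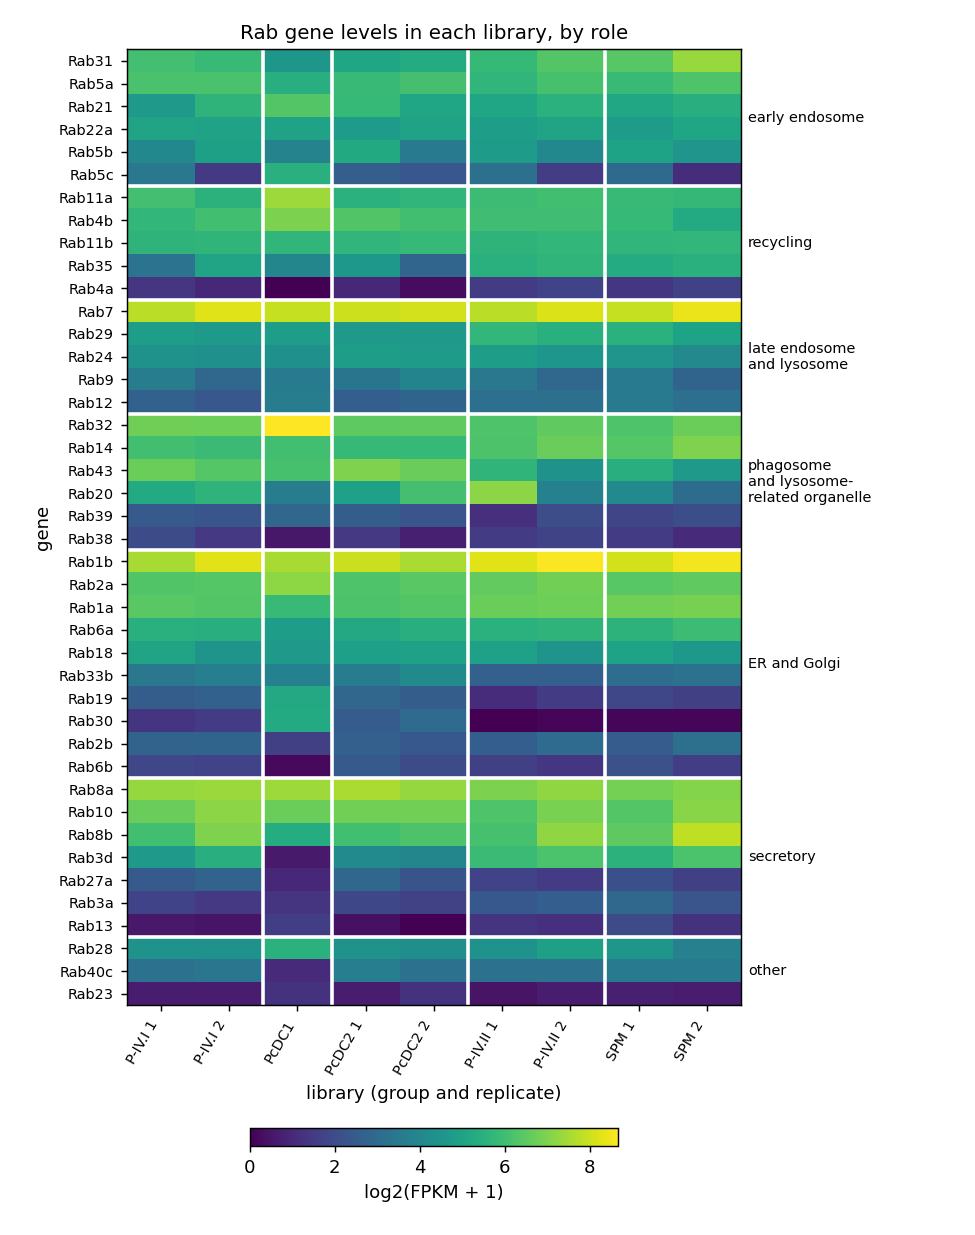
Level of each of the 42 kept Rab genes (rows, grouped by role and ordered by mean) in each of the 9 libraries (columns), as colour on a log2(FPKM + 1) scale. Rab7 and Rab1b are bright in every column, Rab30 is dark in the 4 macrophage columns, and the PcDC1 column stands apart in Rab32, Rab5c, Rab19 and Rab30, which are high there, and in Rab3d, which is low.

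The family did not move as a block between the dendritic and the macrophage libraries, but single members moved in both directions. Differences are log2 fold changes ± standard error (SE) of log2(FPKM + 1) from a limma fit over all tested genes, with adjusted p by the Benjamini-Hochberg method and a threshold of 0.05. In the average comparison, the mean of P-IV.I and PcDC2 minus the mean of P-IV.II and SPM, 14 of 42 members were called (33.3%), against 28.8% of all 10526 tested genes. Of the members 5 were higher (11.9%, against 18.6% of all genes) and 9 lower (21.4%, against 10.3%). The members higher were Rab30, Rab43, Rab19, Rab27a and Rab33b, and those lower were Rab35, Rab3d, Rab13, Rab31, Rab3a, Rab29, Rab4a, Rab14 and Rab12. The split of all genes depended on the scaling: the median of all tested genes was 0.15 on the deposited scale and -0.02 after median-ratio rescaling, where 13.22% of all genes were called higher and 15.11% lower. Over the members the median was -0.02 on the deposited scale and -0.21 after rescaling, where 4 were higher and 10 lower. After quantile normalization 4 members were higher and 9 lower, where 13.38% of all genes were called higher and 13.48% lower. Rab30 reached 1 FPKM in none of the macrophage libraries and Rab13 in none of the 4 dendritic ones compared, so the filter fixed the direction of these 2 calls. Levels of all 4 dendritic libraries lay apart from those of all 4 macrophage libraries for 17 members (40.5%), against 29.1% of all genes.

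An F test over the 4 replicated groups called 6 members, Rab30, Rab3d, Rab19, Rab13, Rab43 and Rab33b (14.3%, against 18.4% of all genes). Within these groups only dendritic libraries reached the filter level for Rab30 and only macrophage libraries for Rab13. Selection thus favoured a difference in both, and their F calls are no independent support. The F call of Rab30 was kept in all 18 alternatives, and that of the other 5 was lost in 2 of them for Rab3d, 3 for Rab19, 4 for Rab13, 7 for Rab43 and 12 for Rab33b. In P-IV.I against P-IV.II 2 members were called, both higher (4.76%, against 9.61% of all genes called and 6.51% called higher), and 0 were lower (against 3.11%). In PcDC2 against SPM 6 members were called (14.3%, against 19.7%), 3 higher (7.14%, against 11.2%) and 3 lower (7.14%, against 8.46%). The difference between these 2 differences passed for 0 members by limma, against 1.11% of all genes, with 3 members, Rab31, Rab30 and Rab24, at an unadjusted p under 0.05 (7.14%, against 10.2% of all genes). In P-IV.II against SPM, the CD11c+ against the CD11c- macrophages, 0 members were called by limma, against 1.14% of all genes, and 0 had an unadjusted p under 0.05, against 11%. In P-IV.I against PcDC2 0 members were called by limma, against 0.732% of all genes, and 2 had an unadjusted p under 0.05 (4.76%, against 7.01%). Both scalings also gave 0 calls in these last 3 comparisons. The average comparison is built from the other differences and shares all its libraries with them, so its calls are no independent count.

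These counts moved when 1 library was left out. That of the average comparison was 6 when PcDC2 replicate 2 was absent, 7 when P-IV.I replicate 2 was, and 9 in fits without SPM replicate 2, P-IV.II replicate 2 or PcDC2 replicate 1. In P-IV.I against P-IV.II both calls, of Rab19 and Rab30, were lost when any 1 of the libraries compared was left out. In PcDC2 against SPM it was 3 without SPM replicate 2 and 1 without PcDC2 replicate 2. The F test called 3 without either P-IV.I library, 1 without PcDC2 replicate 1 and 2 without PcDC2 replicate 2. In P-IV.I against P-IV.II median-ratio rescaling gave 2 members higher and 2 lower, and all genes divided into 4.46% higher and 4.92% lower. In PcDC2 against SPM that rescaling gave 2 higher and 7 lower, and all genes divided into 9.15% higher and 10.35% lower.

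**Figure D2:**
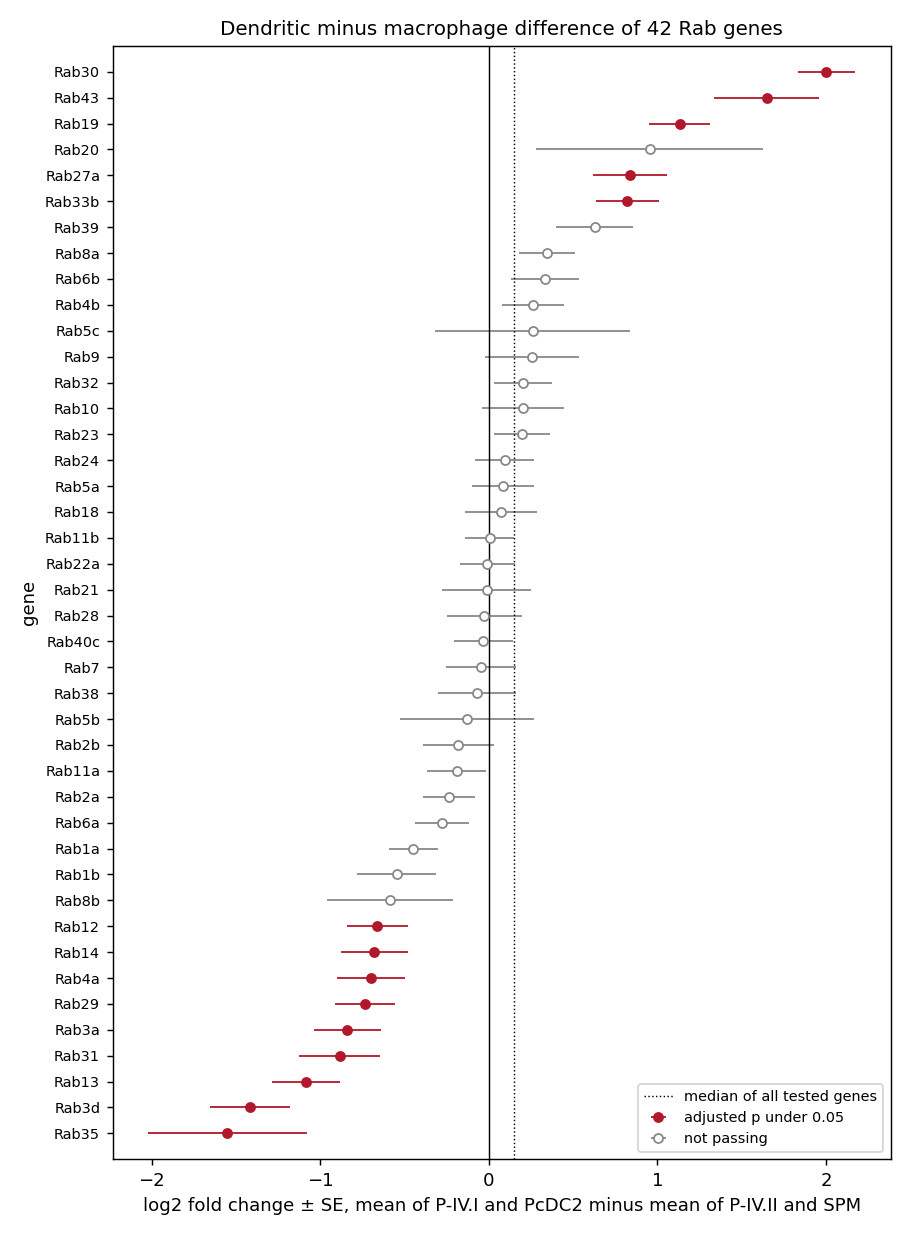
Log2 fold change ± SE of the 42 Rab genes, the mean of P-IV.I and PcDC2 minus the mean of P-IV.II and SPM (2 libraries a group, limma on the deposited scale). Filled red points passed at an adjusted p under 0.05, open grey points did not, and the dotted line is the median of all tested genes; called members run from 2.00 for Rab30 to -1.55 for Rab35. Rab27a was not called under either other scaling, and Rab1a was called lower after median-ratio rescaling.

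Promoter windows of 300 bases, 250 before to 50 after the annotated start, were listed in RefSeq (GRCm38.p6, the same coordinates as mm10) for 37 of the 42 members, and for none of Rab30, Rab2a, Rab18, Rab38 and Rab4a. The windows of the other 5 members that the F test over the 4 replicated groups called are shown. Where a gene has several windows the first listed is shown. Rab19, Rab43 and Rab33b were higher in the dendritic libraries, and Rab3d and Rab13 were higher in the macrophage libraries. Capitals mark matches on either strand to any of 5 motifs. Rab19 lies at chr6:39381103-39381402 (+ strand), Rab43 at chr6:87812115-87812414 (- strand), Rab33b at chr3:51483716-51484015 (+ strand), Rab3d at chr9:21918134-21918433 (- strand) and Rab13 at chr3:90213465-90213764 (+ strand).
Rab19: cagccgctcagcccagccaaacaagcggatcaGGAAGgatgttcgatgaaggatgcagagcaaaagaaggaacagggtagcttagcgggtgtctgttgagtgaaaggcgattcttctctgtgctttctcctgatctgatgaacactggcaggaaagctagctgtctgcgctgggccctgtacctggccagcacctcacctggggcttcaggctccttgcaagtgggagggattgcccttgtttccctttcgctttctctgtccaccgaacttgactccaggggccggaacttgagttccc
Rab43: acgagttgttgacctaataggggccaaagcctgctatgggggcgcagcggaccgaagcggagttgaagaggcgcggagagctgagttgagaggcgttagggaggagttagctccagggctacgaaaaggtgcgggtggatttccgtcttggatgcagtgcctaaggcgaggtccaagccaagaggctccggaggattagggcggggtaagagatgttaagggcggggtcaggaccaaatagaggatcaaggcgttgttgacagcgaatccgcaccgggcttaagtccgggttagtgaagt
Rab33b: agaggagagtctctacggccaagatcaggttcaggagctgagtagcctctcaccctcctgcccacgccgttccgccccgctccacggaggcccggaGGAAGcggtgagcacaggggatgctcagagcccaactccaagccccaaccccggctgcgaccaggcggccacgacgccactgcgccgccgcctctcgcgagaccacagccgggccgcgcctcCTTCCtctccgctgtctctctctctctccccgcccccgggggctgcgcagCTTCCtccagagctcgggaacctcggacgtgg
Rab3d: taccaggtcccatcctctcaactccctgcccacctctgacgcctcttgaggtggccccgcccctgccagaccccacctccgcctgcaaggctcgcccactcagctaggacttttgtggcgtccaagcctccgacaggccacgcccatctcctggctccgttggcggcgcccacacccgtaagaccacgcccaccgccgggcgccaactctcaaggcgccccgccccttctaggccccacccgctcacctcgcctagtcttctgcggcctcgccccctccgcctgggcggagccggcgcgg
Rab13: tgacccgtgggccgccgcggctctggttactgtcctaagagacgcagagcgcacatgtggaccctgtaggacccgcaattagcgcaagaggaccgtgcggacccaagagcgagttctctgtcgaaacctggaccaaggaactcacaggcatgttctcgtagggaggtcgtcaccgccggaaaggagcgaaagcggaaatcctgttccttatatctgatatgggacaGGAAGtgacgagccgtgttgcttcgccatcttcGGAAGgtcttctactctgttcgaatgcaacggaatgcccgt
The motifs were the composite element bound by ETS and IRF factors together, TGANTCA of AP-1, CACGTG, the E-box read by lysosomal gene regulators, TGCTGA, a MAF site, and GGAAG, the ETS core, which can overlap the composite element. Of all 32851 windows 2.72% held the first, 7.81% the second, 7.15% the third, 19.48% the fourth and 71.41% the ETS core. Over the 45 windows of the Rab members the counts were 1, 0, 6, 7 and 36. In the windows shown, the other 4 motifs had no match, and the ETS core was capitalised after this had been seen. All capitals are ETS cores, 1 in Rab19, 3 in Rab33b, 2 in Rab13 and 0 in Rab43 and Rab3d. The GC content was 55.7% for Rab19, 57.7% for Rab43, 70.0% for Rab33b, 71.0% for Rab3d and 56.7% for Rab13, so neither the members higher nor those lower shared a base composition.

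Each role below holds few members, so its counts were not tested as a trait of the role. Among 6 early endosome members, 1 was lower, 0 higher and 5 not passing in the average comparison. Of all genes 10.3% were lower and 18.6% higher there. Rab31, a close relative of Rab22a that acts between the trans-Golgi and endosomes (chromosome 17, 65651726 to 65772752), had the highest mean of them over the 9 libraries, although Rab5a was above it in all 5 dendritic libraries. Rab31 had 66.0 and 56.5 FPKM in P-IV.I, 22.9 in PcDC1, 33.2 and 39.6 in PcDC2, 54.9 and 81.0 in P-IV.II and 84.2 and 159 in SPM. PcDC1 and PcDC2 were lowest and SPM highest, while the P-IV.I and P-IV.II libraries overlapped. The change was -0.89 ± 0.24 (adjusted p = 0.0281) on average and -1.65 ± 0.34 (adjusted p = 0.0118) in PcDC2 against SPM. Rab31 was not called in P-IV.I against P-IV.II, and the test of the difference between these 2 comparisons gave 1.52 ± 0.49 (adjusted p = 0.290). The PcDC2 against SPM call needed SPM replicate 2 (0.0524 as adjusted p without it) and was also lost without either PcDC2 library (0.0819 and 0.0578), and the average call was kept without SPM replicate 1 or P-IV.II replicate 1 only.

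The other early endosome members did not pass. The Rab5 paralogs drive fusion of early endosomes, and Rab5a led them with 43.5 FPKM in PcDC1 and 51.3 to 76.4 in the other 8 libraries. Rab5b ranged from 11.1 to 37.8 FPKM and varied as much within groups as between them, with 37.8 and 11.1 in the PcDC2 libraries. Rab5c followed the replicate number in 3 groups, with 9.97 and 1.81 FPKM in P-IV.I, 8.24 and 1.95 in P-IV.II and 6.78 and 1.22 in SPM for replicates 1 and 2. Rab21, which moves integrins through endosomes, had 24.8 to 54.6 FPKM in the 8 libraries other than PcDC1, and Rab22a, a sorting regulator, 26.4 to 33.8, one of the narrowest ranges of the family.

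Among 5 recycling members, 2 were lower, 0 higher and 3 not passing (all genes: 10.3% lower, 18.6% higher). Rab11a, the main Rab of the recycling endosome, had the highest mean over the 9 libraries, with 66.6 and 46.1 FPKM in P-IV.I, 167 in PcDC1, 45.5 and 51.3 in PcDC2, 60.2 and 64.9 in P-IV.II and 57.8 and 54.4 in SPM. The 4 replicated groups overlapped and PcDC1 stood above all of them. That rank rests on PcDC1, since over the other 8 libraries Rab4b had the highest mean. Rab11b held 48.5 to 55.3 FPKM in all 9 libraries, PcDC1 included at 50.9. Rab4b, of the fast recycling route, was at 124 FPKM in PcDC1 and between 38.0 and 79.1 in the other libraries.

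Rab35, which returns cargo from endosomes to the cell surface (chromosome 5, 115631904 to 115647158), had 8.89 and 32.1 FPKM in P-IV.I, 14.8 in PcDC1, 23.9 and 6.03 in PcDC2, 44.0 and 50.4 in P-IV.II and 39.2 and 44.3 in SPM. Dendritic and macrophage libraries did not overlap, but the 2 libraries of P-IV.I and of PcDC2 lay far apart. The average change was -1.55 ± 0.47 (adjusted p = 0.0408). This call was lost in 6 of the 8 fits that left out a library, those without either SPM library, either P-IV.II library, P-IV.I replicate 1 or PcDC2 replicate 2, with adjusted p up to 0.119, and with library weights (0.0600) or with genes above 0 in 2 libraries tested (0.0808). Rab4a (chromosome 8, 123805846 to 123835291) was near the limit of the filter, with 1.58 and 1.00 FPKM in P-IV.I, a listed 0 in PcDC1, 0.941 and 0.207 in PcDC2, 1.92 and 2.37 in P-IV.II and 1.60 and 2.28 in SPM. All macrophage libraries were above all dendritic ones, if only just, and the change was -0.70 ± 0.20 (adjusted p = 0.0355). It was lost without SPM replicate 2, either P-IV.II library, P-IV.I replicate 2 or PcDC2 replicate 2 (adjusted p up to 0.113), with a pseudocount of 0.1 (0.0592) and with genes above 0 in 2 libraries tested (0.0503). RefSeq places a microRNA, Mir7030, within Rab35 and a long non-coding RNA over 4613 bases of Rab4a, and whether counting used strand is not given in the sources used here.

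Among 5 late endosome and lysosome members, 2 were lower, 0 higher and 3 not passing (all genes: 10.3% lower, 18.6% higher). Rab7, which governs fusion of late endosomes and phagosomes with lysosomes, was the most abundant, with 219 and 301 FPKM in P-IV.I, 238 in PcDC1, 258 and 269 in PcDC2, 218 and 297 in P-IV.II and 238 and 338 in SPM. All groups overlapped, and the average change was -0.05 ± 0.21 with a 95% interval of -0.53 to 0.43, or 0.045 after quantile normalization. Rab29, which acts at the Golgi and lysosome and can recruit the kinase LRRK2 (chromosome 1, 131867210 to 131872887), had 27.9 and 24.5 FPKM in P-IV.I, 27.7 in PcDC1, 24.5 and 24.9 in PcDC2, 52.9 and 44.6 in P-IV.II and 45.4 and 31.6 in SPM. The 5 dendritic libraries lay within a narrow band below every macrophage library, and the change was -0.73 ± 0.18 (adjusted p = 0.0171). It was lost without P-IV.II replicate 1, P-IV.I replicate 2 or either PcDC2 library (adjusted p up to 0.0644). Rab12, which sends recycling cargo to lysosomes (chromosome 17, 66494512 to 66519750), had 5.46 and 4.16 FPKM in P-IV.I, 11.8 in PcDC1, 5.07 and 5.93 in PcDC2, 7.98 and 8.29 in P-IV.II and 10.7 and 7.97 in SPM. P-IV.I and PcDC2 were below every macrophage library, and PcDC1 was above them all. The change was -0.66 ± 0.18 (adjusted p = 0.0272), kept without SPM replicate 2 or P-IV.I replicate 1 and lost without each of the other 6 libraries (adjusted p up to 0.0959). A long non-coding RNA overlaps 13405 bases of Rab12. Rab9, of the route from late endosomes back to the Golgi, ranged from 5.94 to 13.9 FPKM, and Rab24, linked to autophagy, from 15.9 to 28.0.

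Among 6 members of phagosomes and lysosome-related organelles, 1 was higher, 1 was lower and 4 did not pass (all genes: 18.6% higher, 10.3% lower). Rab43, a Golgi and phagosome Rab needed in mice for cross-presentation by type 1 dendritic cells (chromosome 6, 87788853 to 87812164), had 104 and 82.2 FPKM in P-IV.I, 69.2 in PcDC1, 125 and 103 in PcDC2, 49.9 and 20.4 in P-IV.II and 42.8 and 24.0 in SPM. All 5 dendritic libraries were above all 4 macrophage libraries, and the PcDC1 library, of the type for which that role is known, was the lowest of the 5. The average change was 1.65 ± 0.31 (adjusted p = 0.00563) and was called in every alternative run, with adjusted p of at most 0.0262. In PcDC2 against SPM it was 1.79 ± 0.44 (adjusted p = 0.0232), lost without SPM replicate 2 (0.122) or either PcDC2 library (0.124 and 0.0914). Its value in P-IV.I against P-IV.II was 1.51 ± 0.44, which did not pass (adjusted p = 0.0716).

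Rab14, which acts between the Golgi, endosomes and phagosomes (chromosome 2, 35180205 to 35201120), had 65.8 and 58.8 FPKM in P-IV.I, 65.3 in PcDC1, 55.4 and 54.9 in PcDC2, 74.5 and 103 in P-IV.II and 82.3 and 126 in SPM. Every dendritic library was below every macrophage library. The change was -0.68 ± 0.20 (adjusted p = 0.0356), kept without SPM replicate 1 or P-IV.II replicate 1 and lost without each of the other 6 libraries (adjusted p up to 0.119). Rab32, of melanosomes and other lysosome-related organelles, had the highest mean of this role over the 9 libraries, with 110 and 108 FPKM in P-IV.I, 406 in PcDC1, 91.4 and 94.0 in PcDC2, 77.1 and 92.8 in P-IV.II and 76.8 and 106 in SPM. The 4 replicated groups overlapped, and PcDC1 was 3.69 times the highest of the other libraries. Rab43 had a higher group mean than Rab32 in PcDC2, and Rab14 in P-IV.II and SPM. Its relative Rab38 was low throughout, at 2.91 FPKM or below.

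Rab20, a Rab of phagosome maturation in macrophages, rested on 1 library. It had 38.2 and 48.3 FPKM in P-IV.I, 11.8 in PcDC1, 30.4 and 68.3 in PcDC2, 143 and 13.1 in P-IV.II and 16.6 and 7.36 in SPM. P-IV.II replicate 1 was the highest of all libraries and every other macrophage library was below P-IV.I and PcDC2. The average change was 0.95 ± 0.67 (adjusted p = 0.324), and without P-IV.II replicate 1 it was 1.79 (adjusted p = 0.0116). Rab39, which takes part in phagosome acidification, had 3.85 to 4.94 FPKM in P-IV.I and PcDC2 and 1.23 to 3.24 in P-IV.II and SPM, without overlap, and its change of 0.63 ± 0.23 did not pass (adjusted p = 0.0748; 0.0237 without P-IV.II replicate 2).

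Among 10 members of the endoplasmic reticulum (ER) and Golgi, 3 were higher, 0 lower and 7 not passing (all genes: 18.6% higher, 10.3% lower). The 3 are low to moderate in level and belong to the Golgi, while the abundant Rabs of ER to Golgi transport did not pass. Rab30, a Golgi Rab (chromosome 7, 92741637 to 92844535), had 1.52 and 1.89 FPKM in P-IV.I, 38.5 in PcDC1, 4.80 and 7.15 in PcDC2, 0 and 0.0917 in P-IV.II and 0.102 and 0.112 in SPM. The groups fell in the order PcDC1, PcDC2, P-IV.I and then the macrophages, with no overlap between any of these. Only dendritic libraries took Rab30 past the filter, so it had to differ if kept. The average change was 2.00 ± 0.17 (adjusted p = 0.000105) on the log2(FPKM + 1) scale, which understates changes at such low levels. It was 1.37 ± 0.24 (adjusted p = 0.0119) in P-IV.I against P-IV.II and 2.64 ± 0.24 (adjusted p = 0.000202) in PcDC2 against SPM. The first of these was lost without any 1 of its 4 libraries (adjusted p of 0.0548 to 0.0680) and with a pseudocount of 5 (0.0927), and the other 2 were called in every alternative, although the filter had fixed their direction. P-IV.I against PcDC2 gave -1.35 ± 0.24 (adjusted p = 0.0607).

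Rab19, another Golgi Rab (chromosome 6, 39380709 to 39390666), had 4.86 and 5.39 FPKM in P-IV.I, 36.7 in PcDC1, 6.34 and 4.86 in PcDC2, 1.17 and 1.85 in P-IV.II and 2.60 and 2.13 in SPM. P-IV.I and PcDC2 overlapped each other and lay above all macrophage libraries, with PcDC1 far above both. The change was 1.13 ± 0.18 (adjusted p = 0.00267) on average, called in every alternative. In P-IV.I against P-IV.II it was 1.3 ± 0.26 (adjusted p = 0.0188) and in PcDC2 against SPM 0.97 ± 0.26 (adjusted p = 0.0321). Each of these pairwise calls was lost without any 1 library of its own groups (adjusted p up to 0.0975 and 0.178) and after quantile normalization (0.0612 and 0.0810), and that of PcDC2 against SPM also after median-ratio rescaling (0.0603), with genes above 0 in 2 libraries tested (0.0535), in a fit of those groups alone (0.0566) and without either P-IV.I library (0.0517 and 0.0516). Beside Rab30 and Rab19, the summed FPKM of 4 type 1 dendritic cell markers was 66.0 to 152 in P-IV.I, 1752 in PcDC1, 24.9 to 62.3 in PcDC2, 6.61 to 12.3 in P-IV.II and 20.1 to 21.7 in SPM. Rab30 was higher in both PcDC2 libraries than in both P-IV.I libraries, the opposite order to these markers. Sums of 3 plasmacytoid dendritic cell markers were 1.3 to 1.64 in P-IV.I, 1.86 in PcDC1, 3.37 to 3.93 in PcDC2, 0.0286 to 0.0651 in P-IV.II and 0.123 to 0.430 in SPM. The part of either cell type in these results was not tested.

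Rab33b, which links the Golgi with autophagosome formation (chromosome 3, 51483966 to 51496228), had 9.88 and 12.2 FPKM in P-IV.I, 13.2 in PcDC1, 11.4 and 16.7 in PcDC2, 5.38 and 5.31 in P-IV.II and 7.48 and 8.43 in SPM. All dendritic libraries were above all macrophage libraries, and the change was 0.82 ± 0.18 (adjusted p = 0.0125), lost without PcDC2 replicate 2 (0.0579). Rab1b, which starts transport from ER to Golgi, had the highest mean of all Rabs over the 9 libraries, with 184 and 307 FPKM in P-IV.I, 183 in PcDC1, 248 and 187 in PcDC2, 305 and 394 in P-IV.II and 272 and 367 in SPM. Rab7 was above it in group mean in P-IV.I, PcDC1 and PcDC2. The groups of Rab1b overlapped and its change of -0.55 ± 0.23 did not pass (adjusted p = 0.118). Rab1a, its paralog, had 75.0 to 87.4 FPKM in P-IV.I and PcDC2 and 105 to 117 in P-IV.II and SPM without overlap, at -0.45 ± 0.15 (adjusted p = 0.0532); it was called after median-ratio rescaling (adjusted p = 0.0137) and when genes above 0 in 2 libraries were tested (0.0314). Rab6a, of transport from the Golgi, had 36.6 to 44.3 FPKM in P-IV.I and PcDC2 and 45.3 to 61.2 in P-IV.II and SPM, also without overlap, and did not pass. Rab2a, which acts between the Golgi and the ER, reached 147 FPKM in PcDC1 and ranged from 77.1 to 113 in the other libraries. Rab18, of the ER and lipid droplets, ranged from 21.2 to 32.8 FPKM over all 9 libraries, and the minor paralogs Rab2b and Rab6b had at most 8.11 and 4.54.

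Among 7 secretory members, 1 was higher, 3 were lower and 3 did not pass (all genes: 18.6% higher, 10.3% lower). Rab3d, of regulated secretion (chromosome 9, 21907491 to 21918199), had 24.9 and 42.6 FPKM in P-IV.I, 0.559 in PcDC1, 16.9 and 14.6 in PcDC2, 59.8 and 73.5 in P-IV.II and 46.5 and 73.5 in SPM. Every dendritic library was below every macrophage library, with PcDC1 the lowest, then PcDC2, then P-IV.I. The change was -1.42 ± 0.24 (adjusted p = 0.00321) on average, called in every alternative, and -1.83 ± 0.33 (adjusted p = 0.00632) in PcDC2 against SPM, lost without PcDC2 replicate 2 (0.0565). For P-IV.I against P-IV.II the value of -1.0 ± 0.33 did not pass (adjusted p = 0.101), and the test of the difference between these comparisons gave 0.83 ± 0.47 (adjusted p = 0.620). Rab3a (chromosome 8, 70754703 to 70758608), best known from synaptic vesicles, was lower by the same comparison at a far lower level, with 2.34 and 1.73 FPKM in P-IV.I, 1.51 in PcDC1, 2.69 and 2.29 in PcDC2, 4.18 and 4.96 in P-IV.II and 6.53 and 3.89 in SPM. The dendritic libraries were all below the macrophage libraries. Its change was -0.84 ± 0.20 (adjusted p = 0.0153), lost without P-IV.I replicate 2 (0.0505) or PcDC2 replicate 2 (0.0603).

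Rab13, which works at cell junctions and in surface delivery (chromosome 3, 90213715 to 90226387), had 0.496 and 0.416 FPKM in P-IV.I, 2.05 in PcDC1, 0.300 and 0 in PcDC2, 1.5 and 1.28 in P-IV.II and 3.08 and 1.40 in SPM. P-IV.I and PcDC2 were below all other libraries. It passed the filter through the macrophage libraries and PcDC1 only, so among the groups compared it had to be lower in the dendritic ones if kept. The change was -1.09 ± 0.20 (adjusted p = 0.00535) on average and -1.46 ± 0.29 (adjusted p = 0.00881) in PcDC2 against SPM, lost without PcDC2 replicate 2 (0.0729). Rab27a, which docks lysosome-related and exosome-bearing vesicles at the surface (chromosome 9, 73044810 to 73097623), went the other way. It had 4.50 and 5.82 FPKM in P-IV.I, 0.933 in PcDC1, 6.68 and 3.79 in PcDC2, 2.38 and 1.93 in P-IV.II and 3.36 and 2.14 in SPM. P-IV.I and PcDC2 were above all macrophage libraries, while PcDC1 was below every one of them. The change of 0.84 ± 0.22 (adjusted p = 0.0234) was not called after median-ratio rescaling (0.0502) or quantile normalization (0.0705), nor without SPM replicate 2, P-IV.II replicate 2, P-IV.I replicate 2 or PcDC2 replicate 1 (adjusted p up to 0.0756).

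Rab8a, a Rab of delivery to the surface, had the highest mean of the secretory members over the 9 libraries, with 156 and 163 FPKM in P-IV.I, 169 in PcDC1, 188 and 155 in PcDC2, 125 and 148 in P-IV.II and 115 and 133 in SPM. Dendritic and macrophage libraries did not overlap, but the change of 0.35 ± 0.16 did not pass (adjusted p = 0.152). Its paralog Rab8b ranged from 40.8 FPKM in PcDC1 to 226 in SPM replicate 2 and was higher in replicate 2 than in replicate 1 of every replicated group; in SPM its mean was above that of Rab8a. Rab10, which also carries cargo to the surface, had 77.4 to 143 FPKM. The remaining kept members, Rab28 and Rab23, linked to cilia, and Rab40c, part of a ubiquitin ligase, did not pass. Rab28, the highest of the 3, had 21.0 and 21.1 FPKM in P-IV.I, 45.3 in PcDC1, 20.6 and 19.1 in PcDC2, 21.0 and 29.7 in P-IV.II and 23.2 and 12.8 in SPM. Rab40c was at 1.10 FPKM in PcDC1 and between 8.36 and 12 in the other 8 libraries.

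**Figure D3:**
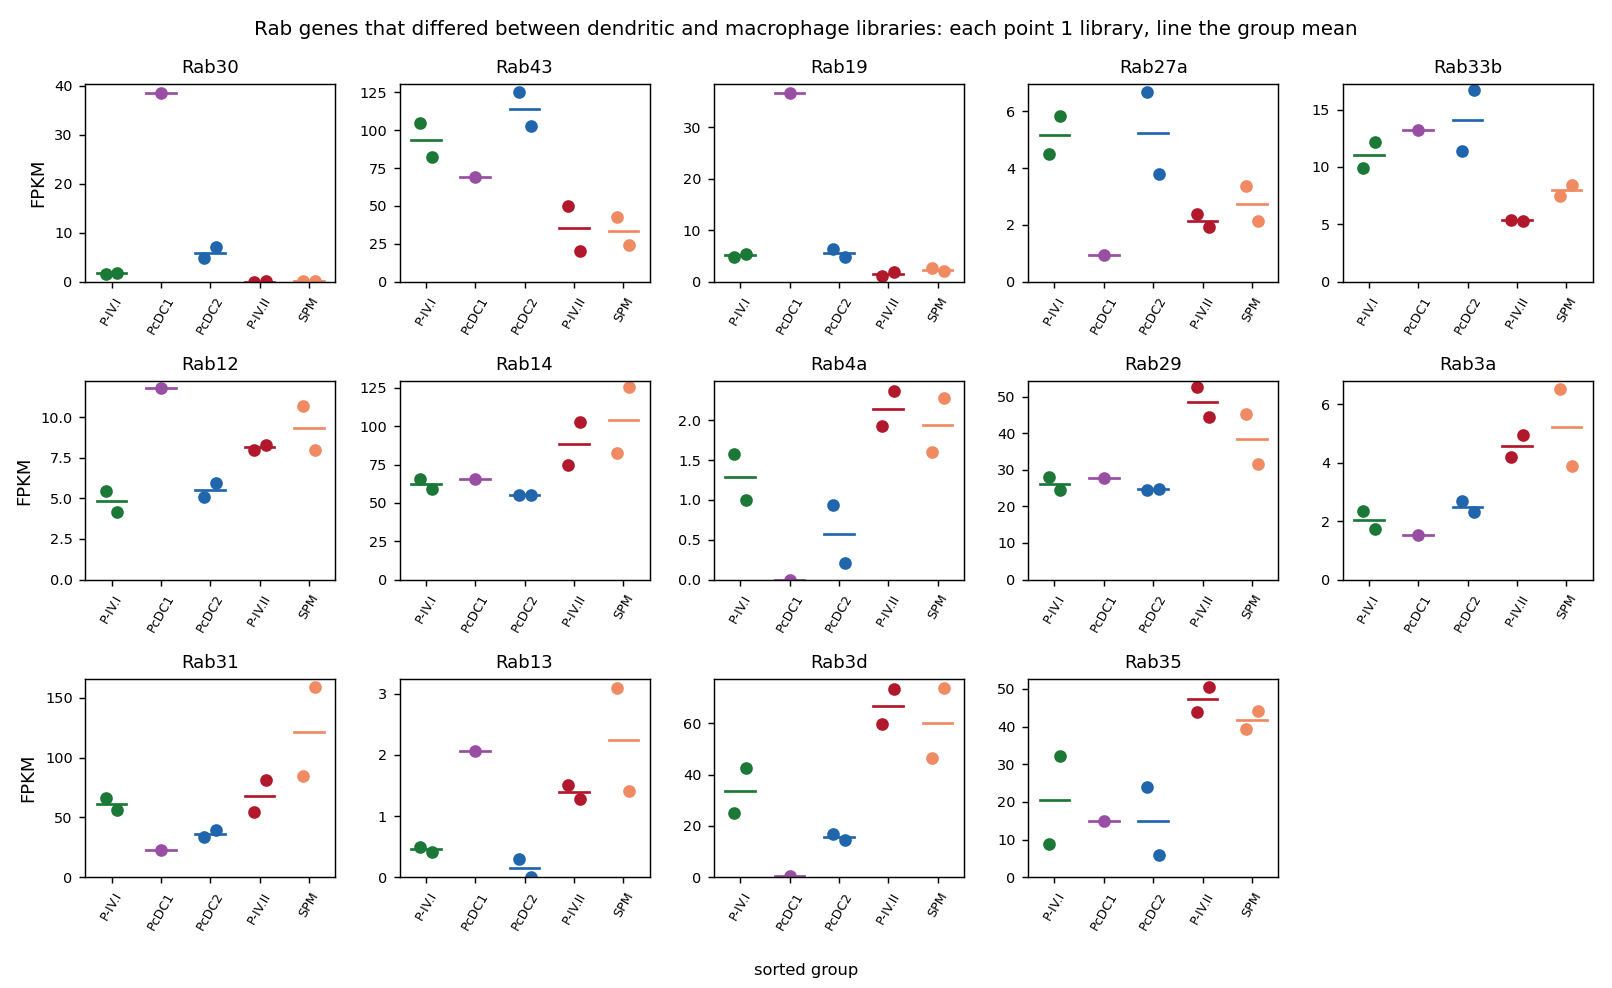
FPKM of the 14 Rab genes called in the average comparison, with 1 point per library, a line at the group mean and each axis starting at 0. Rab43 lies above 69 FPKM in the dendritic groups and below 50 in the macrophage groups, while PcDC1 departs from PcDC2 in Rab30, Rab19, Rab27a, Rab12, Rab13 and Rab3d; Rab27a was not called after median-ratio rescaling or quantile normalization.

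The single PcDC1 library differed from the PcDC2 mean by at least 1 on the log2(FPKM + 1) scale in 12 of 42 members (28.6%), against 48.6% of all tested genes, and there is no replicate check of this group. The same difference between the 2 PcDC2 libraries reached that size in 3 members (7.14%), Rab35, Rab5b and Rab20, against 3.98% of all genes. By direction 7 were higher (16.7%, against 18.1% of all genes) and 5 lower (11.9%, against 30.5%). All these counts are on the deposited scale and depend on it. Median-ratio factors were 0.877 for PcDC1 and 1.09 and 1.12 for PcDC2, so that rescaling would raise PcDC1 against PcDC2. Rab12 at 0.98 and Rab21 at 0.89 lay just under the limit of 1. The 7 members higher in PcDC1 were Rab5c by 3.01, Rab19 and Rab30 by 2.52 each, Rab32 by 2.12, Rab11a by 1.77, Rab13 by 1.42 and Rab28 by 1.15. The 5 members lower were Rab3d at -3.42, Rab40c at -2.40, Rab6b at -2.02, Rab20 at -1.86 and Rab27a at -1.65. Golgi and secretory members stood on both sides, with Rab13 the secretory member above. PcDC1 lay above the range of the other 8 libraries in 12 members, below it in 14 and within it in 16, shares of 28.6%, 33.3% and 38.1% that compare with 26.9%, 39.2% and 33.9% of all tested genes. Its Rab6b, the minor Golgi paralog, was at 0.165 FPKM, against 4.54 and 3.05 in PcDC2.

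**Figure D4:**
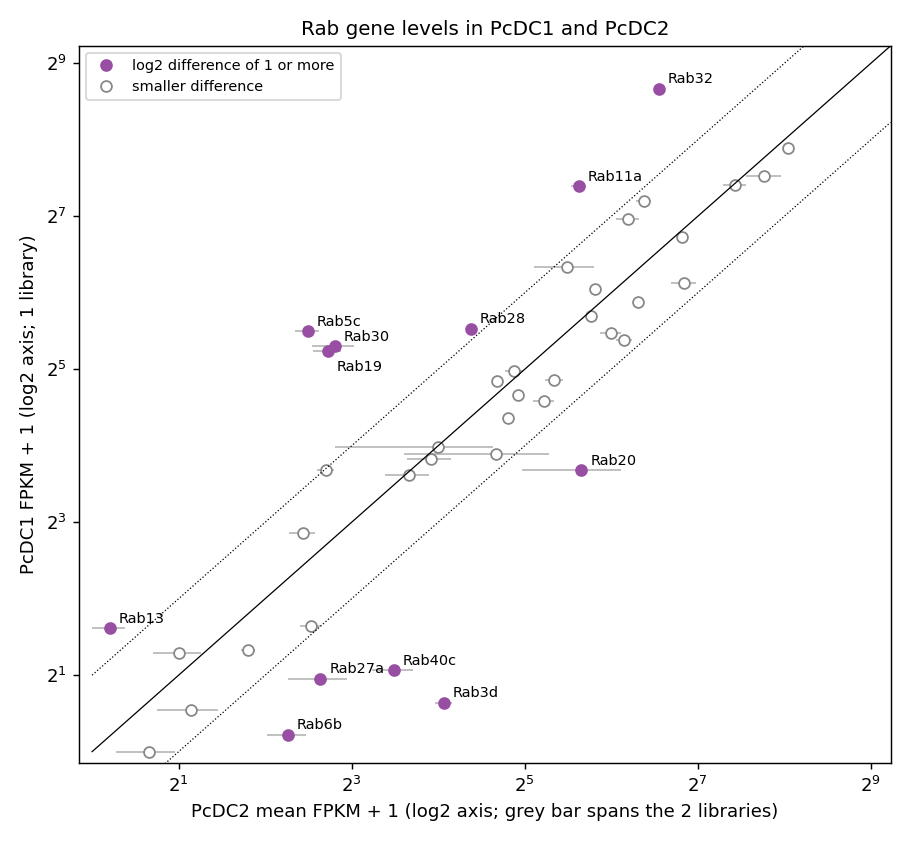
FPKM + 1 of the 42 Rab genes in PcDC1 (y axis, 1 library) against the PcDC2 mean (x axis, grey bars span its 2 libraries). Both are on log2 axes and on the deposited scale. The solid line marks equal levels and the dotted lines a log2 difference of 1; the 12 filled points lie outside them, with Rab5c, Rab19 and Rab30 farthest above and Rab3d farthest below.

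The share of a paralog in its family was outside the range of the other 8 libraries in PcDC1 in most families compared. These were Rab2, Rab3, Rab4, Rab5, Rab6, Rab8 and Rab11, while Rab1 was within the range. For levels of single genes this was common too. The 1 PcDC1 library lay above that range in 26.9% of all tested genes and below it in 39.2%. Rab2a made up 98.6% of its family in PcDC1 and 92.0% to 95.3% elsewhere. For Rab4b the shares were 100% and 94.3% to 99.7%, and for Rab6a 99.4% and 89.0% to 96.9%. Rab3d made up 27.1% of the summed FPKM of Rab3a and Rab3d in PcDC1 and 86.2% to 96.1% in the other 8 libraries. Both were low in PcDC1, with Rab3d at 0.559 FPKM and Rab3a at 1.51, so that share is weakly measured. Rab5c made up 43.6% of the Rab5 sum in PcDC1 and 1.22% to 10.3% elsewhere, and Rab11a 76.7% of the Rab11 sum in PcDC1 and 47.1% to 57.7% elsewhere. Rab8a held 80.6% of the Rab8 sum in PcDC1, 56.4% to 74.2% in the P-IV.I and PcDC2 libraries and 37.0% to 64.3% in the macrophage libraries.

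**Figure D5:**
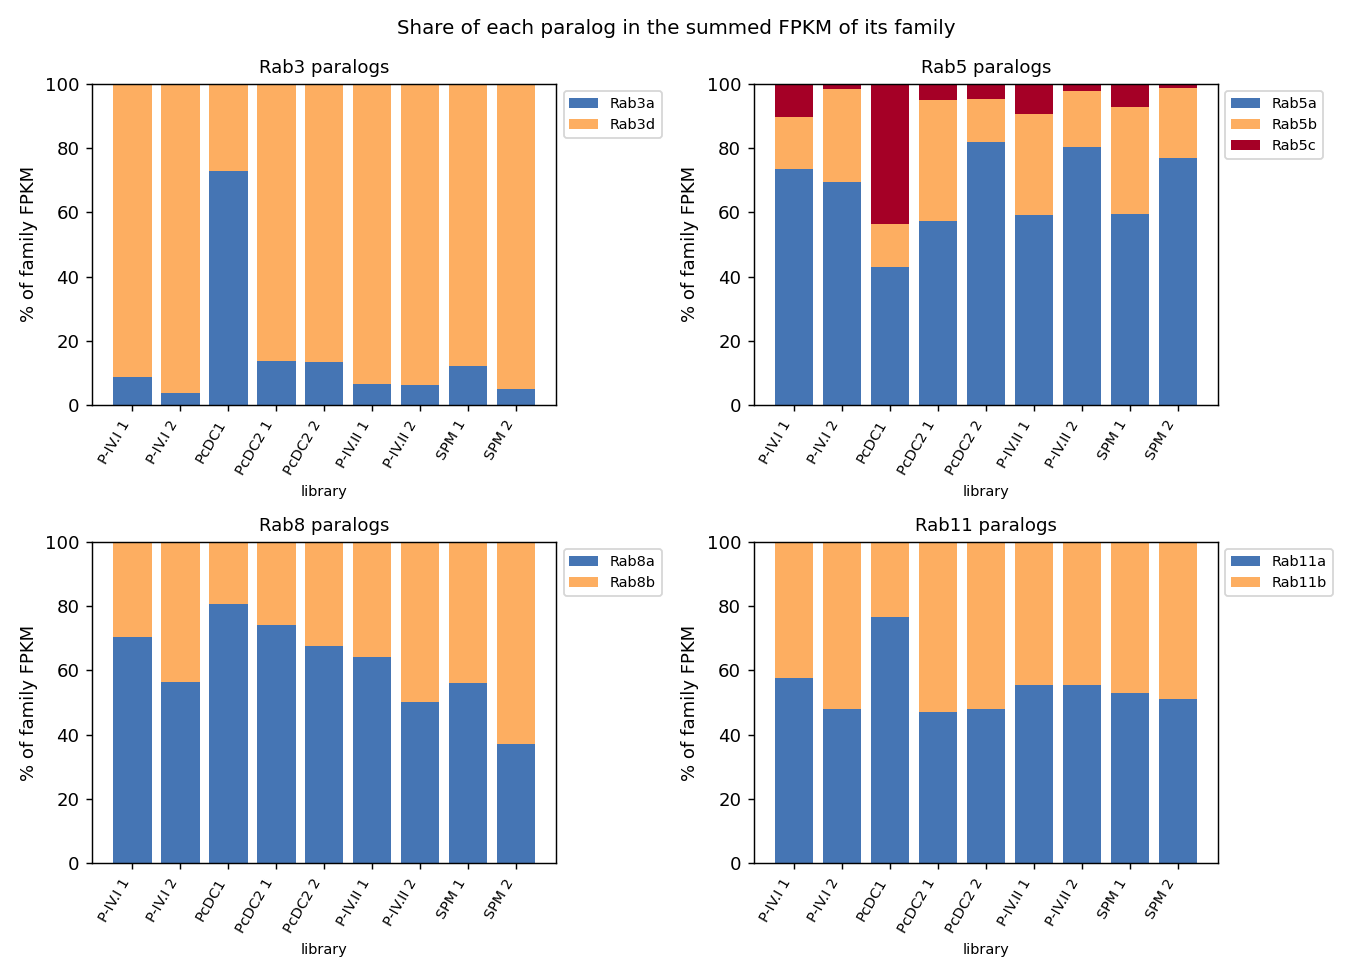
Share of each paralog, in percent of the summed FPKM of its family, in each of the 9 libraries for the Rab3, Rab5, Rab8 and Rab11 families. The PcDC1 bar differs from the others in all 4 panels, with Rab3d at 27.1% and Rab5c at 43.6%. Rab3d and Rab3a were low in PcDC1, at 0.559 and 1.51 FPKM. PcDC1 was also outside the range of the others in the Rab2, Rab4 and Rab6 families, which are not drawn.

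Regulators and effectors of Rab proteins were taken from a list of 132 genes in the table, chosen with earlier results known, of which 109 were tested. In the average comparison 30 of them rose, 9 fell and 70 did not pass, 35.8% called against 28.8% of all genes. By direction this is 27.5% higher, against 18.6% of all genes, and 8.26% lower, against 10.3%. After median-ratio rescaling 21 were higher (19.3%, against 13.22%) and 12 lower (11%, against 15.11%). Their median change was 0.32, against 0.15 over all genes. By class, 2 of 8 genes of GDI and prenylation were higher and 1 lower, 9 of 29 GEFs were higher and 3 lower, 11 of 32 GAPs were higher and 2 lower, and 8 of 40 effectors were higher and 3 lower. P-IV.I against P-IV.II had 12 higher (11%, against 6.51% of all genes) and 1 lower (0.917%, against 3.11%). After that rescaling it had 7 higher (6.42%, against 4.46%) and 2 lower (1.83%, against 4.92%). PcDC2 against SPM had 18 higher (16.5%, against 11.2%) and 10 lower (9.17%, against 8.46%). After the rescaling it had 15 higher (13.8%, against 9.15%) and 11 lower (10.1%, against 10.35%). By limma 0 were called in P-IV.II against SPM and 0 in P-IV.I against PcDC2.

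Several of these genes differed more than any Rab. Lrrk2, the kinase that phosphorylates Rab8a, Rab10, Rab12 and Rab29, had 13.3 and 10.1 FPKM in P-IV.I, 13.4 in PcDC1, 20.4 and 20.4 in PcDC2, 0.963 and 0.373 in P-IV.II and 0.721 and 0.599 in SPM. It was higher by 3.31 ± 0.19 (limma, adjusted p = 2.0e-05) in the libraries of P-IV.I and PcDC2, where Rab29 and Rab12 were lower. In PcDC1 Rab12 was instead above every macrophage library, at 11.8 FPKM. Only dendritic libraries took Lrrk2 past the filter, which fixed the direction of this call. Rilp, the effector that couples Rab7 to the dynein motor, had 0.734 and 0.994 FPKM in P-IV.I, 0 in PcDC1, 0.416 and 0.147 in PcDC2, 7.33 and 6.36 in P-IV.II and 7.45 and 6.89 in SPM. Its change was -2.38 ± 0.16 (limma, adjusted p = 3.89e-05), while Rab7 itself did not pass. Rilp passed the filter through macrophage libraries only, so its direction was fixed too. Exoc6, a subunit of the exocyst that tethers secretory vesicles, was higher by 1.75 ± 0.16 (adjusted p = 0.000162), with 30.6 to 40.6 FPKM in P-IV.I and PcDC2, 9.17 in PcDC1 and 8.36 to 10 in the macrophage libraries.

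Among the GAPs, Tbc1d10c, which is known from lymphocytes, had 23.5 and 24.5 FPKM in P-IV.I, 68.0 in PcDC1, 49.2 and 43.0 in PcDC2, 2.52 and 2.97 in P-IV.II and 3.67 and 3.16 in SPM, a change of 3.08 ± 0.16 (adjusted p = 1.3e-05). Tbc1d4, a GAP of Rab8a and Rab10 that acts in glucose transporter delivery, was higher by 4.09 ± 0.30 (adjusted p = 5.27e-05), with 16.5 to 91.9 FPKM in P-IV.I and PcDC2, 20.2 in PcDC1 and 0.722 to 1.18 in the macrophage libraries. Macrophage libraries alone would not have taken Tbc1d4 past the filter, so selection favoured this direction. Tbc1d8 was higher by 1.41 ± 0.19 (limma, adjusted p = 0.00108). Among the GEFs, Dennd3, which activates Rab12, had 5.30 and 4.49 FPKM in P-IV.I, 0.0267 in PcDC1, 10 and 7.69 in PcDC2, 0.0243 and 0.0612 in P-IV.II and 0.126 and 0.0852 in SPM, a change of 2.82 ± 0.16 (adjusted p = 1.75e-05). PcDC1 was at the macrophage level in this gene. Only P-IV.I and PcDC2 libraries took Dennd3, and also Dennd2c, past the filter, which fixed the direction of both calls. Dennd2c was higher by 0.97 ± 0.17 (adjusted p = 0.00462), and Rin2, which acts on Rab5, was lower, at -1.46 ± 0.31 (adjusted p = 0.00987), with 0.0770 FPKM in PcDC1. Gdi2, the broadly used dissociation inhibitor, had 236 to 366 FPKM in P-IV.I and PcDC2, 331 in PcDC1 and 149 to 176 in the macrophage libraries, a change of 0.87 ± 0.17 (adjusted p = 0.00685). These 10 genes kept their direction and call in the average comparison after median-ratio rescaling and quantile normalization. They had been picked by F-test p in these same data. The filter also bore on the direction of Lrrk2, Rilp, Tbc1d4, Dennd3 and Dennd2c, so keeping it is no independent support.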

How the data were processed

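Gene expression was measured by RNA sequencing in 9 libraries of 5 sorted groups, with cDNA from a SMARTer kit and an Illumina NovaSeq per the labels. Per the submitters' processing notes, the tools were HISAT2 2.1.0, StringTie 1.3.4d, Cufflinks and bcl2fastq 1.8.4, on mm10. The deposited table holds FPKM values under the authors' heading of normalized data, and the sources give no step after FPKM. In a search of 28 library pairs for steps of 1 read, 2.87% to 9.62% of 150 to 342 low genes had the most frequent ratio between libraries to within 1%, so reads could not be recovered, depth is unknown and no counting interval is given.

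Values were taken as log2(FPKM + 1), genes with at least 1 FPKM in at least 2 libraries were tested (10526), and group means were fitted over all 9 libraries with limma 3.58.1 in R 4.3.3 (lmFit, contrasts.fit, eBayes with a variance trend), with 4 residual and 4.02 prior degrees of freedom. Tests are two-sided, adjusted by the Benjamini-Hochberg method over all tested genes within each of 7 comparisons. PcDC1 entered no test. The sources do not say whether libraries of a group are separate animals, so p-values measure the spread between these samples only.

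The Rab members, roles, regulator list and markers were chosen with earlier results of these data known. Every kept member is named, with values in every library for called members and the one with the highest mean over the 9 libraries in each role; regulators are the up to 3 per class with the smallest F-test p. The fit was tested on simulated data. Alternatives were pseudocounts of 0.1 and 5, 2 other filters, median-ratio and quantile scaling, library weights, no variance trend, a fit on the groups compared, a replicate block, leaving PcDC1 out of the table and leaving out each library of the other groups. Coordinates, overlaps and promoters are from RefSeq GRCm38.p6.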

Additional observations from a re-analysis of the deposited data

How the results depend on the processing

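No called Rab result reversed its direction in any alternative run, but 14 of the 28 members not called in the average comparison did. After median-ratio rescaling the change was -0.0069 for Rab10, -0.20 for Rab11b, -0.13 for Rab18, -0.11 for Rab24, -0.0045 for Rab32 and -0.12 for Rab5a, all above 0 as deposited, and after quantile normalization -0.049 for Rab11b, -0.018 for Rab18 and 0.045 for Rab7. With a library left out the change spanned 0 for Rab11b (-0.022 to 0.034), Rab18 (-0.079 to 0.22), Rab24 (-0.019 to 0.21), Rab5a (-0.027 to 0.20), Rab7 (-0.17 to 0.079), Rab38 (-0.25 to 0.10), Rab28 (-0.23 to 0.18), Rab22a (-0.089 to 0.070), Rab5c (-0.23 to 0.75), Rab21 (-0.25 to 0.22), Rab5b (-0.55 to 0.29) and Rab40c (-0.15 to 0.086). When each of the 8 libraries of the replicated groups was left out in turn, the count of Rab members called was 0 to 2 in P-IV.I against P-IV.II (2 with all libraries), 1 to 7 in PcDC2 against SPM (6), 0 in P-IV.II against SPM, P-IV.I against PcDC2 and the difference of differences, 6 to 12 in the average comparison (14) and 1 to 6 in the F test (6). Regulators and effectors numbered 29 to 37 (39), the summed Rab level differed by -13.9% to -6.66% (-10.6%), and PcDC1 differed from a single PcDC2 library by at least 1 in 14 or 15 members (12 from their mean). In P-IV.I against P-IV.II a pseudocount of 5 gave 1 call and median-ratio rescaling 4, and library weights gave 1 call in P-IV.I against PcDC2. Median-ratio rescaling moved the difference in summed Rab level to -22.8%, since its factors are 1.09 to 1.14 for the 4 dendritic libraries and 0.939 to 1.01 for the 4 macrophage libraries. Replicate numbers are shared by 4 groups, but the deviations of same-numbered libraries correlated across genes at 0.71 for P-IV.II with SPM, 0.55 for P-IV.I with SPM, 0.34 for P-IV.I with P-IV.II and -0.28, 0.05 and 0.04 for PcDC2 with P-IV.I, P-IV.II and SPM, so, with PcDC2 near or under 0 throughout, the numbers were not taken to pair the samples. A replicate block gave 6 calls in P-IV.I against P-IV.II, 10 in PcDC2 against SPM and 1 in P-IV.I against PcDC2, and called Rab1a in the average comparison (limma, adjusted p = 0.0364). The cause of these changes was not tested. For the pseudocount of 5, the library weights and the block, the share of all genes called is not given here. Their counts therefore show nothing particular to Rab members. Of the calls of named genes, those of Rab30, Rab43, Rab19, Rab3d and Rab13 in the average comparison were kept in every alternative that tested them; for Rab30 and Rab13 the filter fixed the direction, so this is no support for it. The filter of at least 5 FPKM left 35 members to test. With 2 libraries a group and depth unknown, members under about 1 FPKM are weakly measured.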
